A study of Mus musculus with 8 samples.

Results

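C-type lectin receptors were followed here in mouse peritoneal macrophages that lack or carry FURIN. The 9 genes Clec4d, Clec4e, Clec4n, Clec5a, Clec7a, Clec10a, Clec12a, Mgl2 and Mrc1 were taken by name, and a probe was assigned to a gene through the transcript accession printed on the array design. A probe was matched for 8 of the 9, each by 1 probe with 1 spot, out of 37018 genes and transcripts on the array and 36947 that passed the intensity filter. No accession led to Clec7a, which was not analysed here. Of the 8 measured genes, 6 were well above background in all 16 channels. Clec5a was so in 6 of 16 and Clec12a in 10 of 16.

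The arrays compared peritoneal macrophages of LysMCre-fur(fl/fl) mice (FURIN KO) with those of WT littermates, both on the C57BL/6 background, in order to find how FURIN in myeloid cells shapes gene expression at rest and during an LPS response. Cre is driven by the LysM (Lyz2) promoter, so that floxed fur is deleted in macrophages and other LysM+ cells such as neutrophils. Adherent peritoneal cells were left unstimulated or were cultured with LPS, the outer membrane lipid of Gram-negative bacteria that is sensed by TLR4, at 1 μg/ml for 1, 4 or 24 h. Each 2-colour array carried RNA of both genotypes at a single time, with 2 biological replicates per time and 8 arrays in all. In replicate 1 the KO RNA carried Cy5 and in replicate 2 Cy3, so that replicate number and dye orientation cannot be told apart. The number of animals behind each RNA and their age were not given in the sources used here.

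Between 43.8% and 51.3% of the gene spots were well above background in a channel, and no spot was saturated. The Furin signal was lower in the KO channel at 0, 1 and 24 h, by 0.55 to 0.85 on the log2 scale on the 6 arrays. At 4 h it was not, with log2 KO/WT ratios of 0.00 and 0.33, and where the Furin probe lies relative to the deleted part was not checked. Lyz2, whose locus holds the Cre in the LysMCre strain, was lower in the KO channel on all 8 arrays, 4 h included. Values at 4 h are therefore given for the RNA labelled KO. All 7 measured markers of macrophages were well above background in all 16 channels, whereas of 8 measured neutrophil markers 4 were so in all 16 and 4, Cxcr2, Ngp, Retnlg and S100a9, in none.

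C-type lectin receptors recognise carbohydrates or lipids of microbes and of dying cells through a lectin-like domain. Clec4e (Mincle), Clec4d (MCL) and Clec4n (Dectin-2) signal through the Fc receptor gamma chain and the kinase Syk to CARD9, Clec7a (Dectin-1) carries its own Syk-recruiting motif, and Clec5a couples to DAP12 (Tyrobp). Clec12a (MICL) is an inhibitory receptor for uric acid crystals, while Mrc1 (the mannose receptor CD206) and the galactose-type lectins Clec10a (MGL1) and Mgl2 take up glycoproteins and are used as markers of alternatively activated macrophages and of some dendritic cells.

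The genes lie in groups. Clec4n, Clec4d and Clec4e follow each other on chromosome 6 with no protein-coding gene between them, and Mgl2 and Clec10a are neighbours on chromosome 11 that arose from a common ancestor. Promoter sequences from RefSeq (GRCm38.p6) were found for 7 of the 9 genes, Clec4n and Clec10a being the exceptions. The 250 bases upstream of the start are shown 5′ to 3′ for the neighbours Clec4e and Clec4d, of which Clec4e passed the test with LPS and Clec4d did not, and for Mgl2 and Mrc1, which moved in opposite directions at 24 h. Capitals mark matches, on either strand, to letters read by NF-kB (GGG and CC with any 5 bases between), C/EBP (TTGCNNAA) or PU.1 (GAGGAA), the myeloid lineage factor.
Clec4e (chr6:123289872-123290121, minus strand): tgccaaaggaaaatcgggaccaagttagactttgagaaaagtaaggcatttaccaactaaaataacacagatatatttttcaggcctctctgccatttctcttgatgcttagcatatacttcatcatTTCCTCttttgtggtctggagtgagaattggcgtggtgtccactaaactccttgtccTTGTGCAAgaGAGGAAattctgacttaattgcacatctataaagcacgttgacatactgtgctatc
Clec4d (chr6:123261857-123262106, plus strand): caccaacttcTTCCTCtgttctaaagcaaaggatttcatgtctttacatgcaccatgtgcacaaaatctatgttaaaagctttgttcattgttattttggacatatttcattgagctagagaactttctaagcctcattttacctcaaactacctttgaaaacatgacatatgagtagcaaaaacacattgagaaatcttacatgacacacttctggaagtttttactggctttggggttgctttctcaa
Mgl2 (chr11:70130107-70130356, plus strand): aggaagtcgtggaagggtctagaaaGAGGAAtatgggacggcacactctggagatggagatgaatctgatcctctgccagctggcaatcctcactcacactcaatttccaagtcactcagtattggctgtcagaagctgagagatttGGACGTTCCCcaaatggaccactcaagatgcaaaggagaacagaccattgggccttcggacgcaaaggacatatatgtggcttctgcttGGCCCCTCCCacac
Mrc1 (chr2:14229164-14229413, plus strand): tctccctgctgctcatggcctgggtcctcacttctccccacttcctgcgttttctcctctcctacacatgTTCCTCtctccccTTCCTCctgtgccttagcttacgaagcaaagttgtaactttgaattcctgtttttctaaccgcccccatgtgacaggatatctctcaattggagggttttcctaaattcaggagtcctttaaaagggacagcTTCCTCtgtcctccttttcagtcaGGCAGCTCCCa
The upstream window of Clec4e held a C/EBP match from position -66 to -59 relative to the start and 2 PU.1 matches, whereas that of Clec4d held a single PU.1 match. Mgl2 and Mrc1 held 2 and 1 NF-kB matches, and 1 and 3 PU.1 matches. Among all 32851 RefSeq promoters, windows of the same length held the NF-kB letters in 45.8%, the PU.1 letters in 23.3% and the C/EBP letters in 9.56%. The letters TGANTCA (AP-1, 6.75% of promoters), those of STAT6 (TTC and GAA with any 4 bases between, 5.85%) and of ISRE (GAAA, any 2 bases and GAAA, 2.98%) were also searched on both strands and were in none of these 4 windows. No matches of these motifs overlapped in the printed windows. These matches describe letters and not binding.

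Time with LPS moved several of the measured receptors, and not all in the same direction. Clec4e rose within 1 h, and Clec4n fell at 4 h and rose again from 4 h to 24 h. The rise of Mgl2 passed the test at 24 h only, Clec10a fell from 4 h on and Mrc1 fell at 24 h. In WT macrophages 2, 4 and 3 of the 8 genes passed the test against unstimulated cells at 1, 4 and 24 h, and in KO macrophages 1, 4 and 5 (separate-channel limma, adjusted p over all 36927 genes and transcripts). The corresponding shares of all genes and transcripts were 8.51%, 34.7% and 30.4% in WT and 7.46%, 36% and 28.6% in KO. Being called at 4 h and 24 h was thus common on the whole array. These shares and those given below count features near background too. In a channel 43.8% to 51.3% of gene spots were well above it, whereas most members were so in all channels. Members and lists are therefore not set against features of like brightness. Between 1 h and 4 h 4 of 8 passed in WT and 3 in KO (29.6% and 31.8% of all), and between 4 h and 24 h 5 passed in each (29.7% and 30.7%). With the replicate block 3 instead of 4 members passed in KO at 4 h and the other counts were equal, against shares of all genes and transcripts of 8.94%, 35.5% and 31.1% in WT and 7.99%, 36.6% and 29.4% in KO at 1, 4 and 24 h, 30.3% and 32.6% from 1 h to 4 h, and 30.4% and 31.4% from 4 h to 24 h. All levels below are log2 intensities, which can be compared between samples of 1 gene but not between genes.

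**Figure D1:**
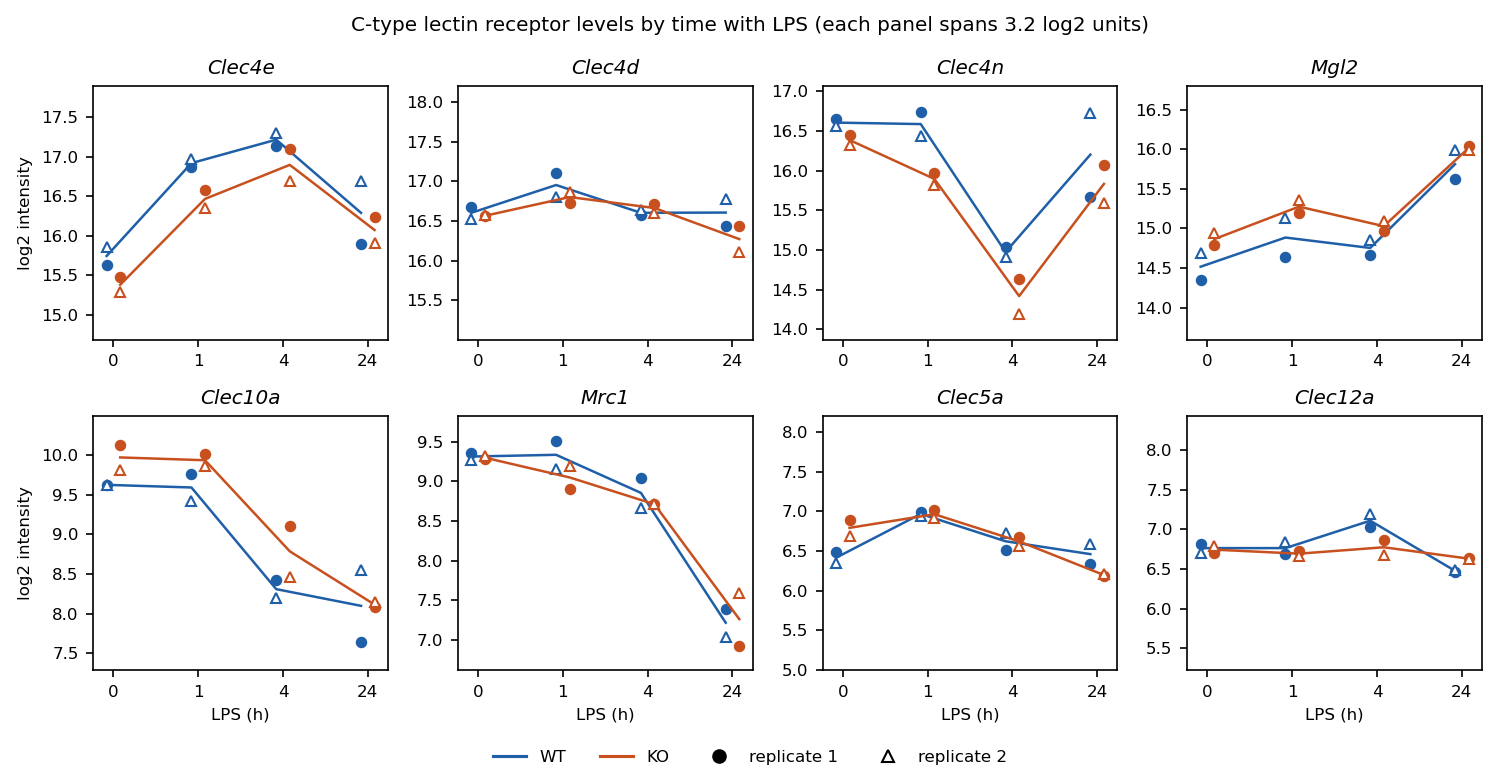
Log2 intensity (y axis) of the 8 measured C-type lectin receptors at 0, 1, 4 and 24 h of LPS (x axis, categories not to scale) in WT and KO macrophages; points are single channels of replicate 1 or 2 and lines join the group means. Clec4e peaked at 4 h, Clec4n dipped at 4 h, Mgl2 was highest at 24 h, and Clec10a and Mrc1 were lowest at 24 h in both genotypes.

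Clec4e, the Mincle receptor for mycobacterial cord factor, rose early. Its WT levels in replicates 1 and 2 were 15.63 and 15.86 unstimulated, 16.86 and 16.97 at 1 h, 17.13 and 17.29 at 4 h, then 15.89 and 16.69 at 24 h. The KO channels gave 15.48 and 15.29 before LPS, 16.58 and 16.35 after 1 h, 17.10 and 16.69 after 4 h, and 16.24 and 15.91 after 24 h. Every channel with LPS was above every unstimulated channel at each of the 3 times. The rise at 1 h was 1.17 ± 0.23 in WT (log2 difference ± SE, 2.25-fold, adjusted p = 0.0042) and 1.08 ± 0.23 in KO (adjusted p = 0.0085) by limma, and at 4 h it was 1.47 (2.76-fold, adjusted p = 0.00012) and 1.51 (2.85-fold, adjusted p = 9.0e-05). The 1 h and 4 h levels did not differ past the test in either genotype (adjusted p = 0.41 in WT and 0.19 in KO, limma). From 4 h to 24 h Clec4e fell by 0.92 in WT (adjusted p = 0.0060) and by 0.82 in KO (adjusted p = 0.012), and it then stood 0.54 (adjusted p = 0.092) and 0.69 (adjusted p = 0.034) above unstimulated cells by limma.

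Several of these Clec4e calls were lost under other settings. Without unstimulated replicate 1 the 1 h rise in WT had an adjusted p of 0.067 (limma), and without 1 h replicate 1 or unstimulated replicate 2 that in KO had 0.10 or 0.080. The fall to 24 h was lost in WT without 24 h replicate 1 (0.53 lower, adjusted p = 0.071 by limma) and in KO without 4 h replicate 1 (adjusted p = 0.14). With loess alone, without scaling between arrays, it was lost in both genotypes (-0.69 and -0.70, adjusted p = 0.069 and 0.066). The 24 h level against unstimulated cells passed in WT once 24 h replicate 1 was left out (0.94 higher, adjusted p = 0.0033 by limma) and missed in KO without 24 h replicate 1 or either unstimulated array (adjusted p = 0.073 to 0.18), with Aquantile scaling (adjusted p = 0.076) and with the scanner software's processed signals (adjusted p = 0.068). In WT the 24 h level also passed with a dye term in the fit (0.54, adjusted p = 0.0075, limma) and with loess only (0.91, adjusted p = 0.017). The KO rise from 1 h to 4 h passed with the dye term (0.43, adjusted p = 0.028, limma). The 4 h rise against unstimulated cells passed in both genotypes under all alternatives run.

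Clec4d, which forms a complex with Clec4e, passed in no comparison over time. WT channels read 16.68 and 16.53 unstimulated, 17.10 and 16.81 at 1 h, 16.57 and 16.64 at 4 h, then 16.44 and 16.78 at 24 h. The KO channels read 16.56 and 16.57 unstimulated, then 16.73 and 16.87, 16.72 and 16.61, and 16.44 and 16.11. All 4 channels at 1 h were above all 4 unstimulated ones, and the other times overlapped. The 1 h difference was 0.35 in WT (adjusted p = 0.21, limma) and 0.24 in KO (adjusted p = 0.48), with 95% intervals of 0.03 to 0.67 and -0.08 to 0.55. The 1 h rises of Clec4e lay above both intervals. Clec4d was bright before LPS, and whether its signal could still show a rise of that size was not tested. At 4 h the intervals were -0.32 to 0.32 in WT and -0.22 to 0.41 in KO. At 24 h KO was at -0.29 (adjusted p = 0.18, limma), and without 24 h replicate 1 at -0.46 (adjusted p = 0.042).

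Clec4n (Dectin-2), a receptor for fungal mannans, moved down and up again. Unstimulated WT channels read 16.65 and 16.56, against 16.74 and 16.44 after 1 h, 15.04 and 14.91 at 4 h, then 15.67 and 16.73 at 24 h. In KO it read 16.45 and 16.33, 15.97 and 15.82, 14.64 and 14.20, and 16.07 and 15.59. All 4 h channels were below all unstimulated ones, and those of 1 h and 24 h overlapped with them. At 4 h the level fell by 1.63 in WT (3.10-fold lower, adjusted p = 0.00024) and by 1.97 in KO (3.91-fold lower, adjusted p = 4.5e-05) by limma. From 4 h to 24 h it rose by 1.23 in WT (adjusted p = 0.0031) and by 1.41 in KO (adjusted p = 0.0010), and both calls held under all alternatives. The 24 h level against unstimulated cells did not pass in WT (-0.40, adjusted p = 0.34) or KO (-0.55, adjusted p = 0.17) by limma, but the WT replicates at 24 h were 1.06 apart. Without 24 h replicate 2 the WT value was -0.93 (adjusted p = 0.0024, limma), without 24 h replicate 1 it was 0.13, and without 24 h replicate 1 the KO value was -0.79 (adjusted p = 0.0074).

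The galactose-type lectins Mgl2 and Clec10a, close relatives, moved in opposite directions. Mgl2 read 14.35 and 14.69 in unstimulated WT cells, 14.64 and 15.13 at 1 h, 14.66 and 14.85 at 4 h, then 15.63 and 15.99 at 24 h. KO cells gave 14.79 and 14.94, 15.19 and 15.36, 14.96 and 15.09, and 16.04 and 15.98. Only at 24 h did the LPS channels lie wholly above the unstimulated ones. There Mgl2 rose by 1.29 ± 0.17 in WT (2.45-fold, adjusted p = 3.4e-05) and by 1.15 ± 0.17 in KO (2.22-fold, adjusted p = 0.00010) by limma, and 24 h was above 4 h by 1.06 and 0.98 (adjusted p = 0.00021 and 0.00037). At 1 h and 4 h its differences were between 0.16 and 0.41 and did not pass. The 95% intervals at 1 h were 0.007 to 0.73 in WT and 0.05 to 0.77 in KO, so a smaller early rise is not excluded.

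Clec10a instead fell. Its WT channels read 9.62 and 9.63 unstimulated, 9.76 and 9.42 at 1 h, 8.42 and 8.19 at 4 h, then 7.65 and 8.55 at 24 h. Its KO channels read 10.13 and 9.81, 10.01 and 9.86, 9.11 and 8.46, and 8.08 and 8.14. All channels at 4 h and 24 h were below all unstimulated channels. The fall at 4 h was -1.32 ± 0.25 in WT (adjusted p = 0.00073) and -1.18 ± 0.25 in KO (adjusted p = 0.0017), and at 24 h it was -1.53 (2.88-fold lower, adjusted p = 0.00028) and -1.86 (3.62-fold lower, adjusted p = 5.3e-05) by limma. Levels at 4 h and 24 h did not differ past the test (adjusted p = 0.64 in WT and 0.059 in KO, limma), although the KO difference of -0.67 passed without 4 h replicate 2 (-0.995, adjusted p = 0.021). The KO difference from 4 h to 24 h also passed with a dye term in the fit (adjusted p = 0.039, limma). With no background correction it passed too (-0.69, adjusted p = 0.048, limma). Whether the Mgl2 probe also binds Clec10a RNA, or the reverse, was not tested.

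Mrc1, an endocytic receptor for mannose-bearing glycoproteins, fell late. WT channels read 9.36 and 9.27 unstimulated, 9.51 and 9.16 at 1 h, 9.04 and 8.67 at 4 h, then 7.40 and 7.04 at 24 h, and KO channels 9.28 and 9.32, 8.90 and 9.20, 8.72 and 8.71, and 6.93 and 7.60. The 24 h channels lay below all others. At 24 h Mrc1 fell by 2.10 ± 0.21 in WT (4.27-fold lower, adjusted p = 3.5e-06) and the KO difference was -2.04 ± 0.21 (4.10-fold lower, adjusted p = 4.9e-06), and from 4 h to 24 h the differences were -1.64 and -1.45 (adjusted p = 3.7e-05 and 0.00010, limma). At 4 h all channels were already below the unstimulated ones. The WT difference there passed with a dye term in the fit (-0.46, adjusted p = 0.020, limma) and with loess only (-0.92, adjusted p = 0.0025). The KO difference of -0.59 passed (adjusted p = 0.045, limma), but not with the replicate number as a block (adjusted p = 0.053) and not without either replicate of 4 h or of unstimulated cells (adjusted p = 0.12 to 0.17), nor with the mean over probes (adjusted p = 0.051) or the processed signals (adjusted p = 0.23). The WT difference of -0.46 did not pass (adjusted p = 0.12), but did without either 24 h array (adjusted p = 0.044).

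**Figure D2:**
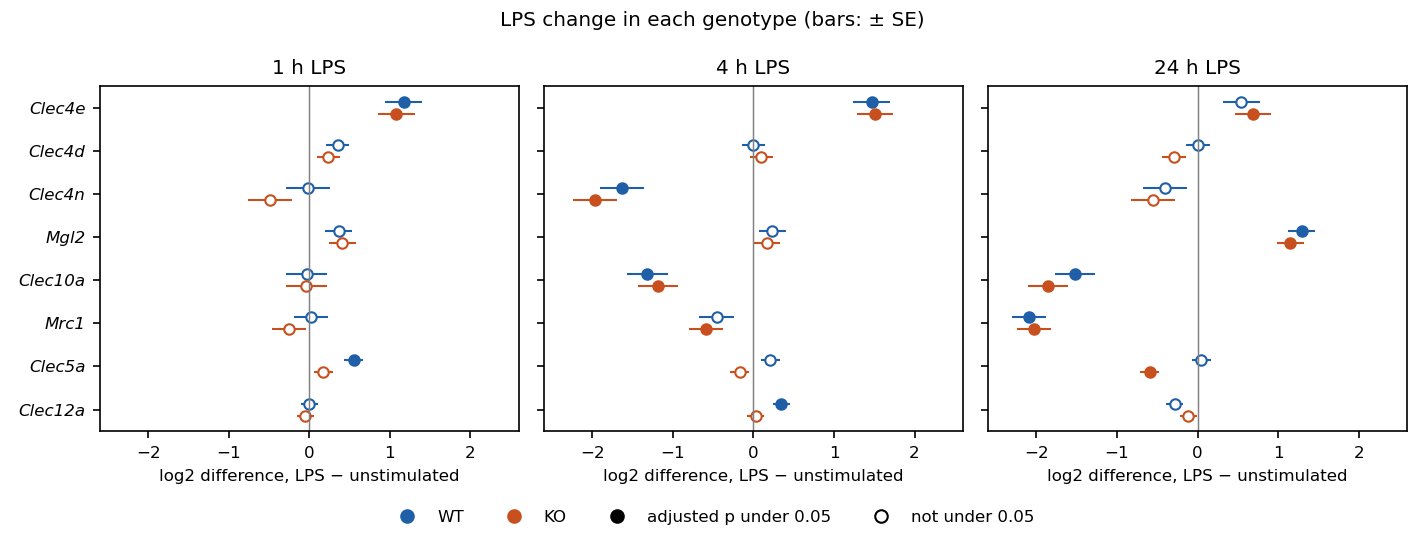
Log2 difference of LPS-treated minus unstimulated macrophages (x axis) for each receptor (y axis) after 1, 4 and 24 h, in WT and KO; points are limma estimates from 2 replicates per group, bars are ± SE, and filled points have an adjusted p under 0.05. The 24 h points of Mgl2 lie near 1.2 and those of Mrc1 near -2.1 in both genotypes.

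Clec5a and Clec12a were dim. Clec5a (MDL-1), a DAP12-coupled receptor, was well above background in both replicates of WT at 1 h and of KO at 0 and 1 h only. The WT levels were 6.41 ± 0.10 unstimulated, 6.97 ± 0.04 at 1 h, 6.62 ± 0.15 at 4 h and 6.46 ± 0.18 at 24 h (SD, n = 2), and the KO levels were 6.79 ± 0.15, 6.96 ± 0.07, 6.62 ± 0.08 and 6.20 ± 0.02. All 1 h channels exceeded all unstimulated ones. As unstimulated WT cells were not well above background, the rise at 1 h in WT is a bound, at least 1.44-fold (adjusted p = 0.0076 by limma), and the call was lost without 1 h replicate 1 (adjusted p = 0.077) or unstimulated replicate 2 (adjusted p = 0.081). In KO the level at 24 h was at least 1.34-fold lower than in unstimulated cells (adjusted p = 0.0012, limma). In these bounds the lowest signal among probes well above background stood in for a dimmer value, after Aquantile scaling of the channels. They concern group means and leave out the spread between replicates. For Clec5a from 1 h to 4 h no value was that dim, so the bound is the plain difference of the means. From 1 h to 4 h Clec5a was at least 1.26-fold lower in each genotype (adjusted p = 0.038 in WT and 0.037 in KO, limma), calls that were lost without any of 3 arrays in WT and of 4 in KO, and with the processed signals in both (adjusted p = 0.050 to 0.27).

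Clec12a, an inhibitory receptor, was not well above background at 24 h in either genotype. Its WT levels were 6.76 ± 0.08 unstimulated, 6.76 ± 0.11 at 1 h, 7.11 ± 0.11 at 4 h and 6.48 ± 0.02 at 24 h (SD, n = 2), and its KO levels were 6.74 ± 0.07, 6.69 ± 0.04, 6.77 ± 0.13 and 6.63 ± 0.01. WT cells at 4 h were 0.35 above unstimulated cells (adjusted p = 0.018, limma), and this was lost without 4 h replicate 2 or unstimulated replicate 2 (adjusted p = 0.12 and 0.14), with loess alone (0.14, adjusted p = 0.53), with no background correction (adjusted p = 0.0998) and with the processed signals (adjusted p = 0.17). From 4 h to 24 h the WT level was at least 1.52-fold lower (adjusted p = 0.00030, limma). In KO no Clec12a comparison over time passed. All 24 h channels lay below all unstimulated ones, at least 1.21-fold lower in the WT mean. That WT difference of -0.29 did not pass in the main fit. It passed with a dye term in the fit (adjusted p = 0.041, limma), with Aquantile scaling (adjusted p = 0.046) and with the mean over probes (adjusted p = 0.040). The KO mean was 1.08-fold lower, with a 95% interval of the log2 difference from -0.34 to 0.11 (limma), which includes no change.

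Summed marker signals of several cell types also changed over the same hours. The summed intensity of the 7 measured macrophage markers, Lyz2 among them, was 531647 to 628184 in unstimulated WT channels and 252724 to 269557 at 24 h, and 447764 to 451493 and 160597 to 180762 in KO. The sum of the 8 measured dendritic cell markers, of which Xcr1 was well above background in none of the channels, was 11601 to 12543 in unstimulated WT channels, 15947 to 21709 at 4 h and 4828 to 5037 at 24 h. These markers include Cd209a, itself a C-type lectin receptor gene. Its WT mean was log2 12.07 unstimulated and 6.12 at 24 h after Aquantile scaling, at least 49.3-fold lower. The fall of this sum is therefore in part that of a lectin gene, and the sum without Cd209a was not computed. At 24 h the WT sums of large peritoneal macrophages (154190 to 194557 unstimulated, 34114 to 92222 at 24 h) and of mast cells, whose marker Ms4a2 was well above background in no channel (8224 to 11517 and 1909 to 3232) were lower too. Those of mesothelial cells and fibroblasts, with 1 of 8 markers well above background in all channels and Pdgfra in none, were higher (833 to 847 and 1974 to 2166), and the neutrophil sums overlapped (48940 to 51185 and 46545 to 83833). The WT sums of small peritoneal macrophages and monocytes were lower as well (298715 to 356926 unstimulated, 159155 to 161393 at 24 h). So were those of B cells (64984 to 84522 and 38702 to 40402) and of T and NK cells (13466 to 21496 and 10450 to 11494). Eosinophil sums overlapped (519 to 533 and 482 to 534). Mgl2 was thus highest, and Mrc1 and Clec10a lowest, at a time when the sums of most cell types were below those of unstimulated cells. Clec10a and Clec4n had already fallen at 4 h, when the dendritic cell sum was high. The WT sums of macrophages (360122 to 444100) and of large peritoneal macrophages (72466.5 to 94298.3) were by then already below those of unstimulated cells. In bulk RNA fewer cells of a type and less RNA per cell cannot be told apart, and the part of cell numbers in these changes was not tested.

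The genes whose log2 intensity ran most like each receptor over the 16 channels are given as a description, since all points share the 4 times. Clec4n ran closest to Clec4b1, another lectin receptor gene (Pearson r = 0.989), then Coq7 and Akr1c13. For Mrc1 these were Retnla, a marker of alternative activation (r = 0.982), Ccl6 and Prodh. Clec10a ran with Garnl3, which is among the markers of large peritoneal macrophages used here (r = 0.970), Enpp5 and Padi4, Mgl2 with Nlrp1a (r = 0.966), Zcchc18 and Ppp3cc, and Clec4e with Cyth2 (r = 0.953), Spryd7 and Ampd3. The flat or dim members had lower values, with r = 0.863 for Clec4d and Ift43, 0.891 for Clec5a and Fam219aos, and 0.872 for Clec12a and Icam5.

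The KO and WT macrophages were then compared within each array. No member passed at any single time, with or without the replicate block. The shares of all genes and transcripts called without the block were 0%, 0%, 0.0135% and 0.0244% at 0, 1, 4 and 24 h, and with it 1.06%, 0.574%, 0.566% and 0.585%. At an unadjusted p under 0.05, limma without the block gave 2, 2, 2 and 1 of the 8 members, against 5.78%, 5.48%, 4.3% and 3.43% of all genes and transcripts. In the mean over the 4 times 0 of 8 passed without the block (background 0.566%), and 4 of 8 had an unadjusted p under 0.05, as did 3940 of all 36947 genes and transcripts. With the replicate block 4 of 8 passed (background 5.99%). Mgl2 and Clec10a were higher and Clec4e and Clec4n lower in KO. Both fits are given, since same-numbered arrays deviated together between all pairs of times. The block takes out of the error whatever sets replicates 1 and 2 apart at all times, dye orientation included. Its p-values therefore rest on agreement over times within the replicates and do not measure the spread between replicates.

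**Figure D3:**
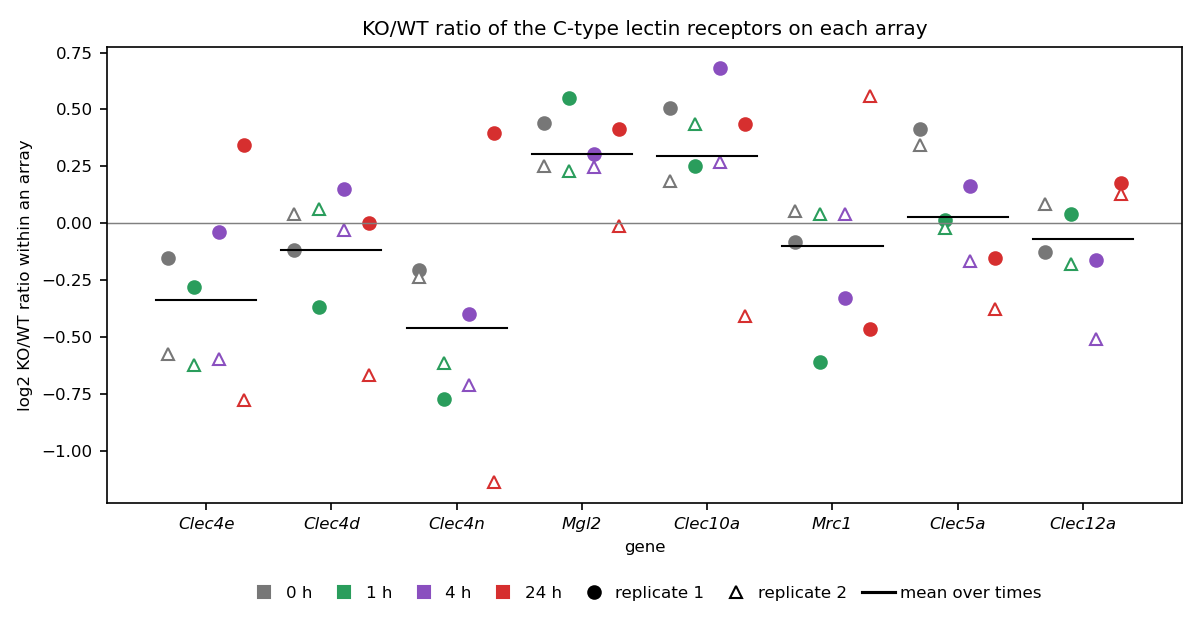
Log2 KO/WT ratio within each of the 8 arrays (y axis) for the 8 measured receptors (x axis); colour gives the hours of LPS, filled circles are replicate 1, open triangles replicate 2, and black lines the mean over the 4 times. Clec4e ratios of replicate 2 lie below those of replicate 1 at each time, and 24 h replicate 2 is the lowest point of Clec4e, Clec4d, Clec4n, Mgl2, Clec10a and Clec5a.

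Mgl2 showed the steadiest ratio. The log2 KO/WT values in replicates 1 and 2 were 0.44 and 0.25 unstimulated, 0.55 and 0.23 at 1 h, 0.30 and 0.25 at 4 h, then 0.42 and -0.01 at 24 h, above 0 on 7 of 8 arrays. Their mean over times was 0.30 ± 0.06 (1.23-fold), with an adjusted p of 0.089 without the block and 0.0037 with it (limma). With the block it passed whichever array was left out (adjusted p = 0.0047 to 0.024) and without both 4 h arrays (0.31, adjusted p = 0.0088).

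Its neighbour Clec10a had ratios of 0.51 and 0.18 unstimulated, 0.25 and 0.44 at 1 h, 0.68 and 0.27 at 4 h, then 0.44 and -0.41 at 24 h. It too was above 0 on 7 of 8 arrays, 24 h replicate 2 being the exception. The mean over times was 0.30 ± 0.10, with an adjusted p of 0.27 without and 0.030 with the block (limma). This call held in 2 of 8 fits with an array left out, those without 1 h replicate 1 and without 24 h replicate 2, and was lost without both 4 h arrays (0.23, adjusted p = 0.16). The summed dendritic cell markers were also higher in KO on 7 of 8 arrays, with log2 KO/WT values from -0.18 to 0.61, and the macrophage markers were lower on 7 of 8, from -0.75 to 0.12. The macrophage list holds Lyz2, which the Cre insertion touches. Their part in the ratios of Mgl2 and Clec10a was not tested.

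Clec4e was lower in KO on 7 of 8 arrays. The ratios were -0.15 and -0.57 unstimulated, -0.28 and -0.62 at 1 h, -0.04 and -0.60 at 4 h, then 0.34 and -0.78 at 24 h, and replicate 2 lay below replicate 1 at every time. The mean over times was -0.34 ± 0.12, with an adjusted p of 0.35 without and 0.0097 with the block (limma). With the block it passed in 6 of 8 fits with an array left out, not without unstimulated replicate 1 (adjusted p = 0.070) or 1 h replicate 1 (adjusted p = 0.056), and it passed without both 4 h arrays (-0.34, adjusted p = 0.032).

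Clec4n had ratios of -0.20 and -0.24 unstimulated, -0.77 and -0.61 at 1 h, -0.40 and -0.71 at 4 h, then 0.40 and -1.14 at 24 h. These were below 0 on all arrays but 24 h replicate 1. The mean over times was -0.46 ± 0.14 (adjusted p = 0.24 without and 0.032 with the block, limma). Without 24 h replicate 1 it was -0.65 and passed without the block as well (adjusted p = 0.018). With the block it passed in 3 of 8 fits with an array left out, those without 1 h replicate 2 or either 24 h array, and it missed without both 4 h arrays (-0.43, adjusted p = 0.11). The summed macrophage and neutrophil markers were each lower in KO on 7 of 8 arrays as well, with log2 KO/WT values from -0.75 to 0.12 and from -0.39 to 0.92, and their part in the Clec4e and Clec4n ratios was not tested.

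Replicates at 24 h differed widely. Between arrays 1 and 2 of that time the KO/WT ratio moved by more than 1 log2 unit for Clec4e, Clec4n and Mrc1 (-0.47 and 0.56), and the summed markers of large peritoneal macrophages gave -0.70 and 1.44. The neutrophil marker sum gave -0.39 and 0.92. Their part in the receptor ratios was not tested.

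For the other 4 receptors the mean KO/WT ratio over times lay near 0, and the 95% intervals without the block were -0.30 to 0.07 for Clec4d, -0.36 to 0.17 for Mrc1, -0.20 to 0.06 for Clec12a and -0.10 to 0.15 for Clec5a. Unstimulated Clec5a had ratios of 0.41 and 0.34 and did not pass (adjusted p = 0.48 without and 0.078 with the block, limma). As the WT channels there were not well above background, the bound for the means was 1.30-fold higher in KO.

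The response to LPS did not differ between genotypes past the test for any member. For the difference of the LPS response at 1, 4 and 24 h, 0 of 8 members passed with or without the block (backgrounds 0%, 0% and 0% without, and 0%, 0.0325% and 0.211% with it), and 1 of 8 had an unadjusted p under 0.05 at each time, Clec5a in each case (1.39%, 2.9% and 3.33% of all without the block). The Clec5a differences all subtract the same unstimulated ratio, in which the WT channels were not well above background. Neither genotype was well above background at 4 h or 24 h. The response differences of Clec4e were -0.09, 0.04 and 0.15 with an SE of 0.35, and those of Mrc1 -0.27, -0.13 and 0.06 with an SE of 0.33. Those of Mgl2 were 0.04, -0.07 and -0.14 with an SE of 0.18. These errors leave room for differences of the same order as the smaller LPS changes.

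Other C-type lectin receptor genes moved over time as well. Of 32 measured, 3 passed in WT at 1 h, all higher, 16 at 4 h (3 higher, 13 lower) and 18 at 24 h (4 higher, 14 lower), against 8.51%, 34.7% and 30.4% of all genes and transcripts, with medians of -0.04, -0.39 and -0.32 against -0.02, -0.00091 and -0.02 over all genes and transcripts. In KO 2, 15 and 14 passed (7.46%, 36% and 28.6% of all). Cd209a (DC-SIGN family) was well above background in neither replicate of either genotype at 24 h, and was at least 49.3-fold lower than in unstimulated cells in WT and at least 54.6-fold in KO. The changes in WT of Cd69, an activation marker of lymphocytes and macrophages, and of Cd93 were 5.19 at 4 h and -4.45 at 24 h. Clec1b, the podoplanin receptor CLEC-2, differed by -3.95 at 24 h in WT, where 1 of 2 replicates was well above background, and was lower by at least 3.42 on the log2 scale in KO, where neither was. Clec4b1 and Clec4a3 are relatives of Clec4n. Clec4b1 was picked above as the gene most like Clec4n over the same channels, so that its course restates that choice, and Clec4a3 was chosen after its values were seen. Both fell at 4 h in WT, with differences of -1.63 and -2.36 (adjusted p = 0.0016 and 1.9e-07, limma) and stood at -0.28 and 0.56 at 24 h. The WT differences at 4 h and 24 h were -0.62 and 1.44 for Clec4a1 and -1.11 and -0.41 for Clec4a4. Clec4b2 and Clec4a2, well above background in 3 and 0 of the channels, gave -0.14 and 0.19, and 0.04 and -0.03. In the KO/WT mean over times 2 of 32 passed without the block (background 0.566%), Clec1b (-0.63, adjusted p = 0.014) and Cd302 (-0.44, adjusted p = 0.047), both lower in KO, and the same 2 passed with it (background 5.99%). At single times with the block Clec1b was lower in KO unstimulated (-0.66), at 1 h (-0.96) and at 4 h (-0.67), and Cd302 at 1 h (-0.59) and 4 h (-0.50). Olr1, the receptor for oxidised LDL, also passed with the block, higher in unstimulated KO cells (0.75, adjusted p = 0.044) and lower at 24 h (-1.25, adjusted p = 0.0049, limma), and its response difference at 24 h was -1.998 (adjusted p = 0.0086).

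**Figure D4:**
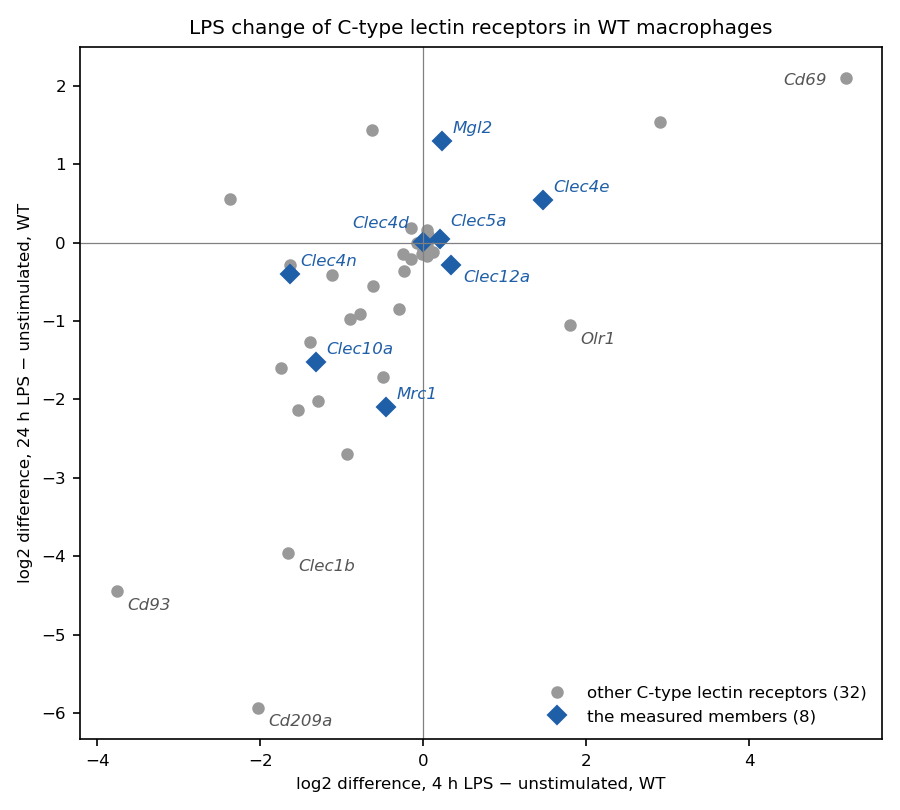
Log2 difference to unstimulated cells in WT macrophages after 4 h (x axis) and 24 h (y axis) of LPS for the 8 measured receptors (diamonds) and 32 other C-type lectin receptor genes (grey points), each point a limma estimate from 2 replicates per group. Mgl2 and Clec4e lie above 0 at 24 h, while Clec10a and Mrc1 lie with the majority of the other genes below 0.

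The signalling partners of these receptors moved in both directions with LPS. Among 28 adaptor and proximal signalling genes, 4 passed at 1 h in WT, all higher, 22 at 4 h (7 higher, 15 lower) and 18 at 24 h (5 higher, 13 lower), against 8.51%, 34.7% and 30.4% of all genes and transcripts. Tyrobp, the DAP12 adaptor of Clec5a, fell by 1.63 at 4 h and by 2.22 at 24 h, and the Src family kinase Fgr changed by -1.53 and -2.94. Inpp5d, the inositol phosphatase SHIP, fell by 3.47 at 4 h and by 0.67 at 24 h. Malt1, the protease of the CARD9 complex, rose by 1.97, 3.202 and 1.14 at 1, 4 and 24 h. In the KO/WT mean over times 1 of 28 passed without the block (background 0.566%), Lyn, a Src family kinase, which was higher in KO by 0.35 (adjusted p = 0.030, limma). With the block 3 of 28 passed (background 5.99%), of which Lyn and Vav3 (0.26) were higher and 1 lower in KO, and Lyn also passed in unstimulated cells (0.47).

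Cytokines and enzymes that these receptors can induce were raised strongly by LPS. Of 11 measured, 10 rose at 1 h in WT, 9 at 4 h and 8 at 24 h, with 1 lower at 4 h and at 24 h (8.51%, 34.7% and 30.4% of all called in either direction). The rises at 4 h were 9.55 for Il6, 9.23 for Ptgs2, 8.53 for Csf2 and 7.44 for Il1b, with Csf2 well above background in 1 of 2 unstimulated WT replicates. In the KO/WT mean over times 0 of 11 passed without the block (background 0.566%) and 3 with it (background 5.99%), Csf2 (0.85) and Ptgs2 (0.57) higher and Egr2 (-0.33) lower in KO. In unstimulated cells Il1b (1.34, adjusted p = 0.016) and Il6 (1.25, adjusted p = 0.030) were higher in KO with the block, and the response difference of Il1b at 24 h was -1.79 (adjusted p = 0.042, limma).

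Genes of alternative activation, the state that Mrc1, Clec10a and Mgl2 are used to mark, split in direction. Of 16 measured, 14 passed at 4 h in WT and 14 at 24 h, with 7 higher and 7 lower each time (34.7% and 30.4% of all called). Ccl24 and Retnla fell at 24 h, with differences of -5.29 and -3.97, as Mrc1 and Clec10a did. Arg1, which uses up arginine, was lower by 2.22 at 4 h and higher by 3.11 at 24 h, when Mgl2 rose, and Cish, a STAT feedback inhibitor, rose by 4.71 at 4 h and by 2.00 at 24 h. In the KO/WT mean over times 1 of 16 passed without the block (background 0.566%), Retnla, which was lower in KO (-0.41, adjusted p = 0.041, limma). With the block 6 of 16 passed (background 5.99%), Retnla, Stab1 (-0.62) and Arg1 (-0.50) lower and Chil3 (0.35), Klf4 (0.30) and Ccl22 (0.24) higher in KO. At single times with the block, Stab1, a scavenger receptor, was lower in KO unstimulated (-0.55), at 4 h (-0.63) and at 24 h (-0.88), Arg1 at 24 h (-1.43) and Retnla at 1 h (-0.59), and Chil3 was higher in unstimulated KO cells (0.57).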

How the data were processed

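Gene expression was measured on Agilent 2-colour mouse arrays in 8 hybridisations, all on 1 slide and from 1 scan. The deposited scanner files hold fluorescence intensities that the authors extracted with Agilent Feature Extraction 10.7.3, per the labels. The deposited ratio table holds the authors' log2 Cy5/Cy3 values (correlation with the values computed here 0.987 to 0.996; column medians 0.0061 to 0.0108) and served as an alternative. The study's methods state normalisation by loess and quantiles in limma.

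Here median signals were corrected with normexp (offset 50) and normalised by loess within and by quantiles between arrays (limma 3.58.1, R 4.3.3). Features were kept at a mean log2 intensity of at least 6, the study's cutoff. The study's methods name no such offset, and with it 36947 of 37018 genes and transcripts passed. Control and outlier spots were left out, and 1 probe per gene, the brightest, was used. Names came from unversioned accessions through RefSeq, which gave 27509 of 55681 probes a symbol.

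KO was compared with WT on ratios, and times on separate channels (within-spot correlation 0.107). Adjusted p-values are Benjamini-Hochberg over all features, at a threshold of 0.05. Replicate differences deviated together in all 6 pairs of times (r = 0.475 to 0.679 over genes, a pairing read from the data), so a fit blocked on replicate number is given where it changes a call. The number of arrays limits the precision. The scripts were tested on simulated data. Settings are named for the main changes of a call, and other changes are only counted. The members and lists were chosen with earlier results of these data known. Named beyond the members were list genes past the threshold in a KO comparison, up to 4 genes per list with the largest WT change with LPS, and 3 most similar genes per member. The other Clec4a and Clec4b genes were named as relatives of Clec4n. A result of 1 list gene is not reported here. The labels' growth protocol states 4 h of stimulation for all samples, and times were taken from the sample titles.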

Additional observations from a re-analysis of the deposited data

Results flagged for a closer look

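The KO/WT ratio of Clec5a had opposite signs in all arrays of 2 times. It was 0.41 and 0.34 in unstimulated macrophages (mean 0.38) and -0.15 and -0.38 at 24 h (mean -0.26), a difference of -0.64. In the limma test of that difference the adjusted p was 0.73 without and 0.095 with the replicate block. The gene was well above background in the unstimulated KO channels and in neither group at 24 h.

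Clec12a had ratios of -0.16 and -0.51 at 4 h (mean -0.34) and 0.18 and 0.13 at 24 h (mean 0.15), a difference of 0.49. This difference between 4 h and 24 h was not tested. At 24 h the gene was not well above background in either genotype, and at 4 h the Furin signal was not lower in the RNA labelled KO.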

How the results depend on the processing

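Of 36 calls of a member in a comparison over time, 24 held under all 16 alternatives and none changed direction. Over all comparisons, 2312 of 2416 alternative values kept direction and side of the threshold, 42 lost and 53 gained a call, and 9 changed sign, where a value that was not called and was smaller than its SE was given no direction. With the dye term 5 members passed in WT at 24 h (33.4% of all genes and transcripts), and with the software's processed signals 2 passed from 1 h to 4 h in WT (29.7%). With loess only the split of all calls moved, 27.2% against 47% higher from 1 h to 4 h in WT and 79.4% against 50.8% from 4 h to 24 h, and the median of all shifted to -0.16 and 0.074. For the KO/WT mean over times the replicate block gave 4 members (5.99% of all), and 2 without both 4 h arrays (4.75%). The block changed 1 other call, Mrc1 in KO at 4 h. The fits without both 4 h arrays and the block with an array left out were chosen after seeing the data.

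With each array left out in turn, 0 to 1 members passed for the KO/WT mean without the block (0.00271% to 0.43% of all) and 1 to 4 with it (2.14% to 6.08%), 0 to 1 in KO (3.89% to 7.69%) and 1 to 2 in WT (4.87% to 8.93%) at 1 h, 2 to 6 from 1 h to 4 h in WT (24.8% to 28.8%), and 3 to 6 from 4 h to 24 h in KO (24.7% to 30%). The lone array left at a time was assumed to vary like the other groups. Values that changed sign were small or rested on 1 array. With either replicate of that time left out, the response difference at 24 h ran from -0.75 to 0.091 for Clec10a and from -0.63 to 0.038 for Clec4d, the KO/WT ratio at 24 h from -1.14 to 0.40 for Clec4n and from -0.011 to 0.42 for Mgl2, the WT change of Clec4n at 24 h from -0.93 to 0.13, and the KO/WT ratio of Mrc1 at 1 h from -0.61 to 0.039. Without both 4 h arrays the mean ratio of Clec12a was 0.022 with and without the block, and with loess only the KO change of Clec4d at 24 h was 0.00435. The methods' t-test gave 1694, 1754, 1128 and 1514 genes and transcripts for KO against WT at 0, 1, 4 and 24 h at an unadjusted p under 0.05, and 0 at each time after Benjamini-Hochberg adjustment. Clec5a and Clec12a lie near background, where signal limits what can be measured.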
